A study of Mus musculus with 15 samples.

Results

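The major urinary proteins (Mup genes) were followed in the livers of mice fed 3 diets. The members Mup1, Mup2, Mup3, Mup7, Mup17, Mup20 and Mup21 were taken by symbol, 7 of the 22 genes whose symbol is Mup and a number and of the 25731 genes in the files. The 7 were chosen with earlier results of these data known. All 22 Mup genes passed the filter on low counts and are among the 13967 genes tested. Livers of C57BL/6 mice, an inbred laboratory strain, were taken after 3 days of ketogenic feeding (KD), in which carbohydrate is scarce, of high-fat feeding (HFD) or of chow (CD), with 5 libraries of total RNA per diet. KD and HFD were fed at 12 weeks of age, while the labels state neither the age of the chow mice nor any sex. Y-linked transcripts (Ddx3y, Eif2s3y, Kdm5d and Uty) were detected in every library. Ddx3y averaged 85.7, 76.7 and 72.2 normalised CPM in KD, HFD and CD livers, with lowest libraries at 81.7, 71.0 and 64.8. Xist was not among the genes tested, so no value is given for it. Each library was taken as 1 mouse, which the labels do not spell out, so the p-values measure the spread between these samples only. The study was designed around fatty liver disease and how the liver responds to KD.

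Major urinary proteins are small barrel-shaped carriers of the lipocalin family, made in quantity by the hepatocytes of mice, secreted into blood and passed into urine. They bind volatile pheromones and release them slowly from scent marks, and some act as signals themselves. In mice the liver genes are more active in males, and their transcription depends on pulsed growth hormone acting through STAT5, with androgens and thyroid hormone acting upstream. The genes form a tandem cluster, in which a central block of near-identical copies is set beside more divergent members.

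All 22 genes lay on chromosome 4 (build GRCm38, GENCODE M21 annotation) and are annotated as protein-coding, and Mup6 was the only one on the plus strand. Of the members, Mup7 lies at chr4:60066469-60070475, Mup2 at chr4:60135932-60154289, Mup1 at chr4:60498012-60501960, Mup17 at chr4:61591929-61595871, Mup20 at chr4:62050234-62054158, Mup3 at chr4:62083476-62087342 and Mup21 at chr4:62147932-62150863. How far reads can tell these genes apart was measured from the transcript sequences, as the share of a gene's distinct 31-base words that no other gene holds. The share was 72.2% for Mup20, 71.8% for Mup3 and 66.3% for Mup21, but 29.8% for Mup1, 21.5% for Mup2, 13.8% for Mup17 and 11.7% for Mup7. It was 0 for Mup15, Mup19 and Mup22. The 4 members with low shares sat in a pool of 16 copies joined because at least 50% of the words of the smaller gene occurred in another. The reads of a copy within that pool were divided by estimation, so its own value is uncertain and the sum over the pool is given beside it. Mup3, Mup20 and Mup21 each stood outside the pool, as did Mup4, Mup5 and Mup6.

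The coding sequences show the same grouping. Mup7 shared 98.9% of coding bases with Mup1, 98.7% with Mup2 and with Mup17, 90.4% with Mup20, 84.1% with Mup21 and 83.2% with Mup3. The 60 coding bases below are the stretch that varies most among the 7 members (20 variable positions), all in exon 3. They are shown because such positions are what lets a read be given to one copy. Capitals mark the bases that differ from Mup7. The stretch lies at chr4:60068915-60068974 in Mup7, chr4:60138401-60138460 in Mup2, chr4:62052650-62052709 in Mup20, chr4:62085973-62086032 in Mup3 and chr4:62149368-62149427 in Mup21, on the minus strand, and is read 5′ to 3′ in the direction of the gene. Mup17 and Mup10 had 0 differences from Mup7 here, Mup1 and Mup2 each had 1, Mup20 had 8, Mup21 had 16 and Mup3 had 17.
Mup7: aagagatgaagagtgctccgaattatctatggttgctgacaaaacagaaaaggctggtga
Mup2: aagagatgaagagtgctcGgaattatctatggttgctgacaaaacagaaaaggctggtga
Mup20: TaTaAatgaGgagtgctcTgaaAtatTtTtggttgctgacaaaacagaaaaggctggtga
Mup3: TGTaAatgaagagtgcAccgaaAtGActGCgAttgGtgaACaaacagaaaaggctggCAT
Mup21: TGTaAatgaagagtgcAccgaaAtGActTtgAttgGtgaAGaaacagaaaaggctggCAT

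As a share of all reads assigned to genes, the 22 Mup genes together were below the range of both other diets in every KD liver. Because copies share reads, this sum is the firmest level for the family, and it is a description with no test. The shares were 3.84, 4.00, 4.16, 6.03 and 5.06% in KD livers (replicates 2, 3, 4, 6 and 8). They were 13.4, 14.4, 12.2, 8.01 and 7.71% in HFD livers (replicates 9, 10, 11, 12 and 14), and 10.7, 8.49, 8.88, 8.40 and 14.5% in CD livers (replicates 15 to 19). The highest KD liver, replicate 6, was below the lowest HFD and CD livers, whereas HFD and CD livers overlapped. The mean was 4.62 ± 0.918% in KD livers, 11.2 ± 3.11% in HFD livers and 10.2 ± 2.57% in CD livers (SD, n = 5 each). The 7 members alone made up 1.06 ± 0.402% of reads in KD livers, 4.559 ± 1.503% in HFD livers and 3.998 ± 1.284% in CD livers. The other 15 genes made up 3.56 ± 0.541% in KD livers, 6.60 ± 1.61% in HFD livers and 6.18 ± 1.31% in CD livers. In bulk liver, fewer cells that express a gene and less of its RNA per cell cannot be told apart.

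**Figure D1:**
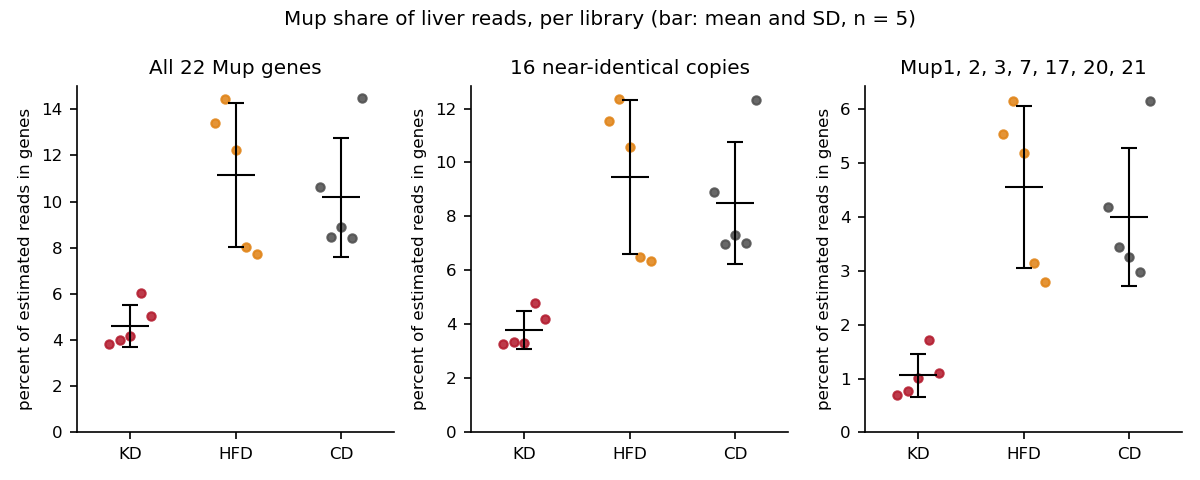
Percent of each library's gene-assigned reads taken by all 22 Mup genes (left), by the 16 near-identical copies (middle) and by the 7 members (right), for KD, HFD and CD livers. Points are libraries and bars the mean and SD (n = 5 each). All KD livers lie below all HFD and CD livers in each panel, and HFD and CD livers overlap.

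Beside 2038 of 13967 genes lower in KD than in CD livers (14.6%), 6 of the 7 members were lower and 0 were higher (edgeR quasi-likelihood test, Benjamini-Hochberg adjusted p under 0.05). In either direction 30.8% of genes passed. Libraries of the 6 did not overlap between KD and CD, where 10.1% of all genes were lower without overlap, 12.2% higher without overlap and 22.3% either. The median log2 fold change of the 7 members was -2.60, and that of all genes tested was -0.01. Beside 1818 genes lower in KD than in HFD livers (13%, and 26.1% in either direction), 6 of 7 were lower and 0 higher. The 6 again did not overlap, where 7.73% of all genes were lower without overlap, 9.3% higher and 17.0% either, and the median was -2.83 for the 7 and -0.02 for all genes. For the 15 other Mup genes the median was -0.81 against CD and -1.01 against HFD. The 7 members were chosen with earlier results of these data known, so their counts and medians describe a chosen list. Of the 6, Mup1, Mup2, Mup7 and Mup17 also share reads and are not separate observations. Both comparisons use the same KD libraries. The split over all genes depended on the scaling. Against CD it was 2258 higher and 2038 lower here, 2753 and 1265 with total-count scaling, and 4856 and 347 with log2(TPM + 1) in limma. Against HFD it was 1826 and 1818 here, 2305 and 960 with total-count scaling, and 4978 and 199 with log2(TPM + 1). The 6 members were called lower under each of these. Between HFD and CD livers, where 7.32% of genes were lower, 8.3% higher and 15.6% either, 0 of 7 members and 0 of all 22 Mup genes passed in either direction. At an unadjusted p under 0.05, the count between HFD and CD was also 0 of the 22 genes, and DESeq2 called 0 of the 7. None of the 22 was without overlap there, where 4.81% of all genes were lower without overlap, 5.5% higher and 10.3% either. Log2 fold changes of the 7 members between HFD and CD ran from -0.17 to 0.51.

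Of the 4 members within the 16-copy pool, Mup2 and Mup7 had the lowest KD levels relative to the other diets among all 7 members. Mup2, one of the central copies, had 35.7, 30.3, 29.5, 172 and 59.9 normalised CPM (a library's reads scaled to 1 common depth with TMM factors) in KD livers, against 1773, 1354, 631, 435 and 571 in HFD livers and 1175, 855, 543, 647 and 1644 in CD livers. KD replicate 6 stood far above the other KD livers but still below every HFD and CD liver. The log2 fold change of Mup2 was -3.89 ± 0.64 (SE) against CD (adjusted p = 0.000592) and -3.86 ± 0.64 against HFD (adjusted p = 0.00101, edgeR). Without KD replicate 6 these values were -4.65 and -4.61. Ordered from the most negative log2 fold change, Mup2 was number 9 of the 13967 genes against CD and number 4 against HFD.

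Mup7, another central copy, had 733, 766, 905, 3646 and 2008 normalised CPM in KD livers, against 31671, 36336, 31258, 13530 and 10347 in HFD livers and 20641, 16634, 14037, 12966 and 33264 in CD livers. All KD livers were below the rest, and replicates 6 and 8 were the higher of them. Its log2 fold change was -3.60 ± 0.57 against CD (adjusted p = 0.000433) and -3.93 ± 0.58 against HFD (adjusted p = 0.000424, edgeR). Per length, mean Mup7 was 3466 ± 2557 TPM in KD livers, 54790 ± 25700 TPM in HFD livers and 41960 ± 19010 TPM in CD livers. Among genes outside the mitochondrial genome, it ranked 27 by mean TPM in KD livers, 2 in HFD livers and 3 in CD livers.

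Mup1, a central copy that has been linked to glucose and lipid metabolism in mice, had 193, 247, 256, 717 and 370 normalised CPM in KD livers, against 2580, 3130, 2070, 913 and 1035 in HFD livers and 1951, 1320, 1181, 1060 and 2653 in CD livers. Mup17 had 204, 120, 204, 423 and 309 normalised CPM in KD livers, against 3642, 3772, 2453, 830 and 871 in HFD livers and 1852, 650, 1089, 1063 and 3447 in CD livers. For both genes the KD libraries were below all others, and HFD replicates 12 and 14 were the nearest to them among HFD livers. Log2 fold changes of Mup1 were -2.20 ± 0.46 against CD (adjusted p = 0.00307) and -2.45 ± 0.47 against HFD (adjusted p = 0.00239, edgeR). Log2 fold changes of Mup17 were -2.68 ± 0.59 against CD (adjusted p = 0.00423) and -3.20 ± 0.61 against HFD (adjusted p = 0.00233, edgeR).

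The sum over all 16 copies also fell, with a smaller log2 fold change than these 4 had one by one, a difference that was not tested. The pool held 30576, 32137, 31144, 48529 and 42213 normalised CPM in KD livers, against 124023, 135089, 109245, 62890 and 57626 in HFD livers and 94386, 70120, 73909, 69638 and 126438 in CD livers. No KD liver reached the lowest HFD or CD liver. Fitted as 1 row in place of its copies, the pool had a log2 fold change of -1.23 ± 0.26 against CD (adjusted p = 0.00215), -1.41 ± 0.26 against HFD (adjusted p = 0.00135) and 0.17 ± 0.25 for HFD against CD (adjusted p = 0.703, edgeR). The pool made up 82.3 ± 2.65% of Mup reads in KD livers, 84.3 ± 2.55% in HFD livers and 83.25 ± 1.204% in CD livers. These shares differ by less than 1 SD, while copies inside the pool differed from each other in log2 fold change.

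Mup3, Mup20 and Mup21 can be told apart from the pool and from each other by most of their sequence. Mup3, a divergent member at the far end of the cluster, had 2346, 2932, 2612, 4995 and 3841 normalised CPM in KD livers, against 10108, 10348, 8733, 8042 and 7022 in HFD livers and 9713, 9507, 10137, 8775 and 11763 in CD livers. Its KD livers lay below all the others, and its HFD and CD libraries varied less than those of any other member (coefficients of variation 15.8% and 11.1%). The log2 fold change was -1.58 ± 0.18 against CD (adjusted p = 6.71e-06) and -1.40 ± 0.18 against HFD (adjusted p = 3.81e-05, edgeR). The first value is a level 2.98 times lower in KD than in CD livers.

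Mup21, whose closest relative by coding sequence is Mup3 (95.4% of bases), had far fewer reads. It had 13.8, 28.4, 27.8, 74.3 and 29.8 normalised CPM in KD livers, against 235, 376, 223, 268 and 141 in HFD livers and 187, 199, 162, 202 and 306 in CD livers. KD livers were again all below the others, with replicate 6 the nearest. The log2 fold change of Mup21 was -2.60 ± 0.41 against CD (adjusted p = 0.000402) and -2.83 ± 0.41 against HFD (adjusted p = 0.00038, edgeR). Mup21 averaged 105 ± 65.0 TPM in KD livers, 669 ± 181 TPM in HFD livers and 565 ± 127 TPM in CD livers.

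Mup20, known as darcin, the male pheromone that draws females to a scent mark, was the member that did not pass. It had 2972, 3163, 5538, 7192 and 4495 normalised CPM in KD livers, against 9559, 11826, 8021, 6470 and 5319 in HFD livers and 8795, 5529, 5732, 4766 and 10134 in CD livers. KD replicates 4 and 6 lay within the range of the other diets, while KD replicates 2, 3 and 8 lay below it. The log2 fold change was -0.58 ± 0.30 against CD (adjusted p = 0.163) and -0.82 ± 0.30 against HFD (adjusted p = 0.0603, edgeR). Against HFD the adjusted p was 0.0371 with DESeq2, 0.0478 with a stricter filter, 0.0298 with log2(TPM + 1) in limma, 0.0249 without KD replicate 6 and 0.0437 without HFD replicate 14. Among the 23 alternatives it ran from 0.0249 to 0.143 against HFD and from 0.0616 to 0.349 against CD. As a share of Mup reads Mup20 was 10.3 ± 2.59% in KD livers, 7.28 ± 0.792% in HFD livers and 6.63 ± 0.755% in CD livers. Whether its difference from the other members exceeds their error was not tested.

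**Figure D2:**
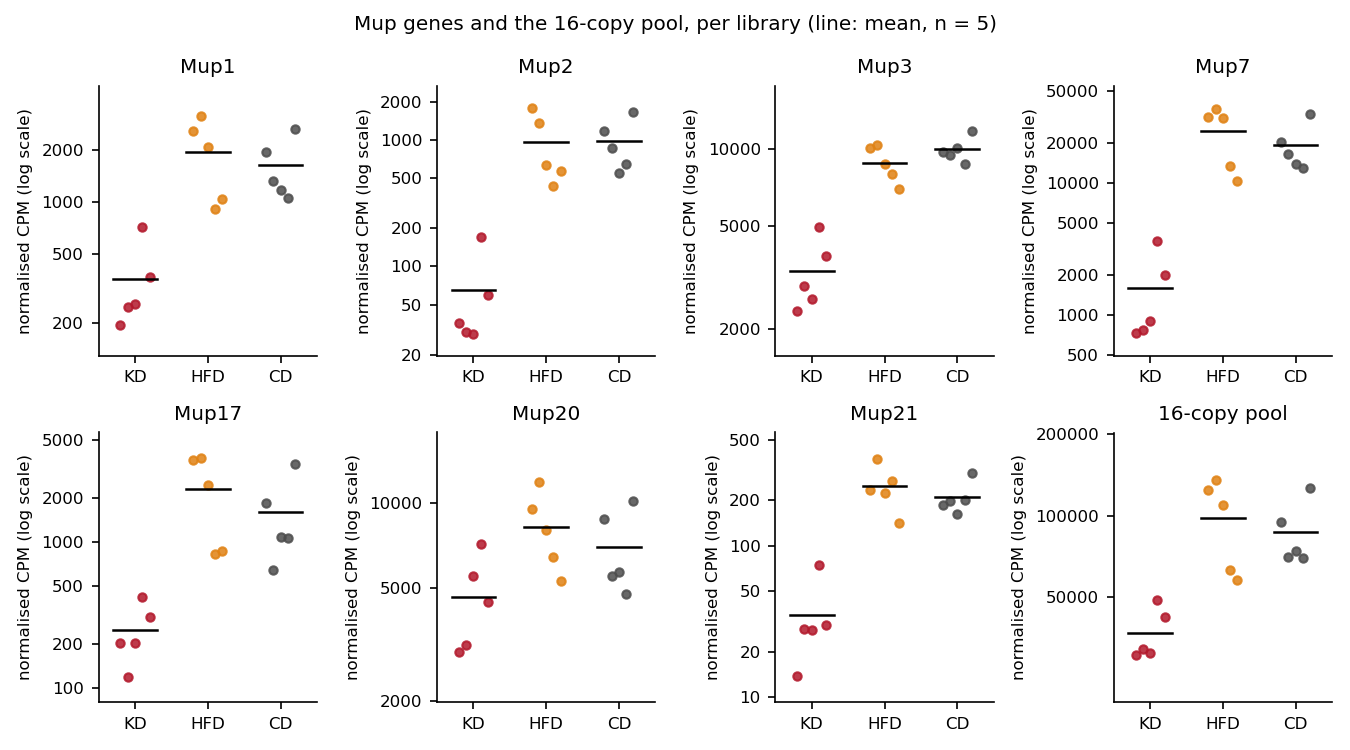
Normalised CPM on a log scale for the 7 members and for the sum of the 16-copy pool, in KD, HFD and CD livers. Points are libraries and lines the mean (n = 5 each). KD livers lie below all others for every panel but Mup20, where KD replicates 4 and 6 overlap the other diets.

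The 15 other Mup genes were lower in KD livers in 11 cases against CD and in 10 against HFD. Mup10 was higher in both comparisons. Of all genes, 14.6% were lower and 16.2% higher against CD, and 13% lower and 13.1% higher against HFD. All of the 15 but Mup4, Mup5 and Mup6 lie in the 16-copy pool and share reads. Those in the pool are therefore not separate observations. Against CD, the log2 fold change of Mup14 was -2.61 ± 0.42 (adjusted p = 0.000484) and that of Mup15 was -2.58 ± 0.66 (0.00982). That of Mup8 was -2.50 ± 0.44 (0.000926) and that of Mup12 was -2.09 ± 0.42 (0.00224, edgeR). Mup22, the most abundant by TPM among them, had 17135, 17274, 15560, 22274 and 21620 normalised CPM in KD livers, against 37404, 37362, 29941, 21758 and 23880 in HFD livers and 34543, 26916, 29219, 27704 and 38321 in CD livers. KD and CD livers did not overlap for Mup22, whereas HFD replicate 12 lay within the KD range. Its log2 fold change was -0.74 ± 0.16 against CD (adjusted p = 0.00156) and -0.68 ± 0.16 against HFD (adjusted p = 0.0043, edgeR). Other falls against CD were those of Mup11 (-0.86, adjusted p = 0.0176), Mup19 (-0.81, 0.0202) and Mup16 (-0.72, 0.0165, edgeR). Mup13 had a log2 fold change of -0.61 ± 0.24 against CD (adjusted p = 0.0699, under 0.05 in 5 of 23 alternatives) and fell by 1.01 against HFD (0.00853). Mup16 had one of -0.58 ± 0.21 against HFD (0.0509, edgeR; under 0.05 in 7 of 23). Mup18 fell by 1.39 on the log2 scale against CD (adjusted p = 0.0295), a call that ended without any 1 of KD replicates 3, 4, 6 and 8 or CD replicates 17 and 19 (adjusted p 0.0544 to 0.0709). That of Mup19 ended without KD replicate 3 or CD replicate 19 (adjusted p 0.0504 and 0.0503).

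Mup10, a central copy with 16.8% of its words its own, went the other way. It had 1066, 903, 1265, 1460 and 1026 normalised CPM in KD livers, against 203, 209, 98.8, 927 and 176 in HFD livers and 132, 267, 200, 268 and 168 in CD livers. All KD livers were above all CD livers, while HFD replicate 12 lay within the KD range and stood apart from the other HFD livers. The log2 fold change was 2.47 ± 0.53 against CD (adjusted p = 0.00364) and 1.83 ± 0.52 against HFD (adjusted p = 0.0219, edgeR), where 16.2% and 13.1% of all genes were higher. Without HFD replicate 12 the second value was 2.74. The call against HFD ended without HFD replicate 10 (adjusted p = 0.052), without HFD replicate 14 (0.0509) and with only the 2 diets in the fit (0.0559). Of the words of Mup22, 95.1% also occur in Mup10, and these 2 genes join each other in the pools at 90%. Mup22 averaged 18770, 30070 and 31340 normalised CPM in KD, HFD and CD livers, against 1144, 323 and 207 for Mup10. The rise of Mup10 thus rests on how reads were divided between it and a more abundant copy that fell. Since Mup10 shares most of its sequence with the pool, how far its reads come from other copies was not tested.

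Mup4, Mup5 and Mup6 are best known in mice from glands and nasal tissue, and were scarce in these livers. Mup4 averaged 3.17 ± 0.522 normalised CPM in KD livers, 4.44 ± 1.51 in HFD livers and 4.21 ± 0.618 in CD livers, and did not pass against CD (adjusted p = 0.124) or HFD (0.0749). Mup5 averaged 3.30 ± 0.758 in KD livers, 4.96 ± 1.61 in HFD livers and 6.05 ± 1.51 in CD livers, and fell by 0.87 on the log2 scale against CD (adjusted p = 0.00777). In KD against HFD its log2 fold change of -0.59 ± 0.23 did not pass (adjusted p = 0.0673, edgeR; 0.033 with DESeq2, 0.0478 without KD replicate 6 and 0.0277 without HFD replicate 12). Mup6 averaged 10.7 ± 1.5 in KD livers, 15.8 ± 2.45 in HFD livers and 15.9 ± 3.85 in CD livers, and fell by 0.56 against both other diets (adjusted p = 0.0124 and 0.0157, edgeR). With log2(TPM + 1) the adjusted p of Mup6 was 0.12 against CD and 0.0587 against HFD (limma).

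**Figure D3:**
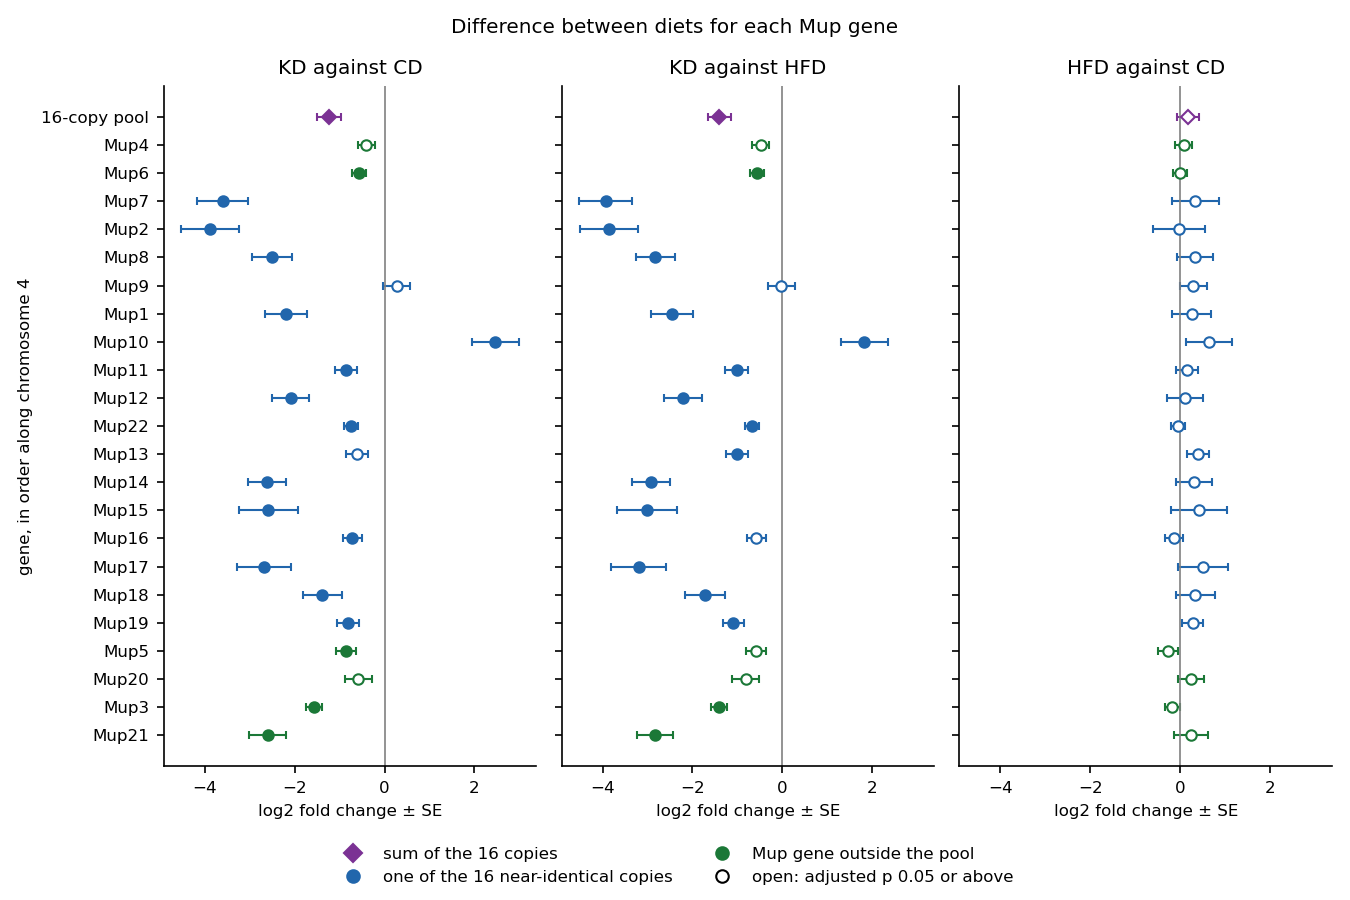
Log2 fold change with SE for each Mup gene, in order along chromosome 4, and for the summed pool (top), in KD against CD, KD against HFD and HFD against CD. Filled symbols have adjusted p under 0.05. Mup2 and Mup7 lie lowest in both KD panels, Mup10 is the only filled symbol above 0, and no symbol is filled in HFD against CD.

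The make-up of the Mup reads, as divided by estimation, differed between KD livers and the other diets. Mup22 had 0 words of its own and Mup7 11.7%, so their shares rest on how the reads of the pool were divided. Mup7 was 2.04, 2.00, 2.30, 6.00 and 3.97% of Mup reads in KD livers, against 22, 23.1, 24.8, 17.4 and 14.8% in HFD livers and 18.3, 19.5, 15.6, 15.5 and 22.4% in CD livers. Mup22 was 47.7, 45.1, 39.6, 36.6 and 42.7% in KD livers, against 26.0, 23.7, 23.7, 28.0 and 34.1% in HFD livers and 30.5, 31.5, 32.5, 33.2 and 25.8% in CD livers. For Mup7 every KD liver was below, and for Mup22 every KD liver was above, all the others. The 7 members made up 22.3 ± 4.15% of Mup reads in KD livers, 40.3 ± 2.71% in HFD livers and 38.9 ± 2.93% in CD livers. Mup3 was 7.33 ± 0.721% in KD livers, 8.17 ± 1.85% in HFD livers and 9.89 ± 1.54% in CD livers, with overlapping libraries.

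**Figure D4:**
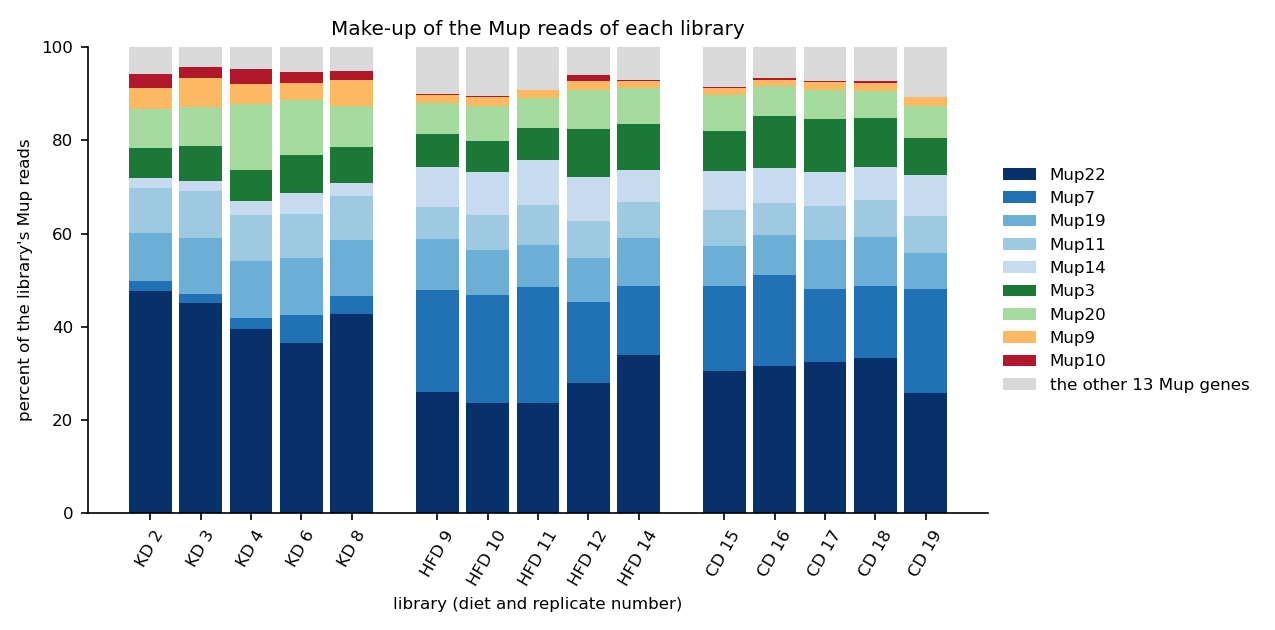
Share of each library's Mup reads taken by 9 Mup genes and by the other 13 together, for KD, HFD and CD livers. Each bar is 1 library and adds to 100 percent. Reads shared by near-identical copies were divided between them by estimation. Mup7 is 2.00 to 6.00% in KD livers and at least 14.8% in HFD and CD livers, and Mup10 is at least 2.03% in KD livers.

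By mean TPM, which allows for length, Mup22 was among the most abundant genes on every diet, at 42500 ± 5894 TPM in KD livers (rank 2 outside the mitochondrial genome), 73200 ± 16700 TPM in HFD livers and 73400 ± 12940 TPM in CD livers (rank 1 in both). With 0 words of its own, Mup22 takes these values from how the reads of the pool were divided. Among the members, Mup20 held rank 10 in KD livers, 8 in HFD livers and 10 in CD livers. For KD, HFD and CD livers in turn, Mup3 held ranks 15, 9 and 7, Mup1 ranks 129, 24 and 27, and Mup17 ranks 179, 21 and 29. Mup2 held ranks 714, 41 and 44 and Mup21 ranks 904, 117 and 131. In KD livers the member with the highest mean TPM was Mup20 (9170 ± 3284), followed by Mup3 (6298 ± 1783), Mup7 (3466 ± 2557), Mup1 (766 ± 443), Mup17 (515 ± 229), Mup2 (140.5 ± 122.7) and Mup21 (105 ± 65.0). The libraries of neighbours in this order overlapped, except that the lowest Mup7 value (1667) was above the highest Mup1 value (1525). In HFD livers the order was Mup7 (54790 ± 25700), Mup20 (15330 ± 3668), Mup3 (14980 ± 777.6), Mup17 (4978 ± 2981), Mup1 (4423 ± 2010), Mup2 (2088 ± 1210) and Mup21 (669 ± 181). In CD livers the order was Mup7 (41960 ± 19010), Mup3 (16900 ± 1322), Mup20 (12690 ± 3869), Mup1 (3608 ± 1508), Mup17 (3401 ± 2421), Mup2 (2068 ± 1005) and Mup21 (565 ± 127), where the ranges of Mup3 and Mup20 overlapped, as did those of Mup1, Mup17 and Mup2.

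Within a diet the same livers tended to hold the high or the low values of each member. KD replicate 6 was the highest KD liver for 7 of 7 members and CD replicate 19 the highest CD liver for 7 of 7. HFD replicate 10 was the highest HFD liver for 6 of 7, and HFD replicates 12 and 14 held the lowest value for all 7 between them. After subtraction of diet means, Pearson's r of log2 normalised CPM between pairs of members ran from 0.53 (Mup17 with Mup21) to 0.96 (Mup1 with Mup7) over the 15 libraries. Mup20, which shares few words with the rest, had r of 0.89 with Mup1 and 0.75 with Mup3. These are descriptions over libraries that share depth and scaling, and for Mup1, Mup2, Mup7 and Mup17 also reads.

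Among 8609 named genes outside the family with a mean of at least 5 CPM, the 6 whose log2 values followed the summed Mup row most closely over the 15 libraries were Serpina3k (r = 0.96), Cyp7b1 (0.96), Serpina1e (0.95), C6 (0.95), Ptms (0.95) and mt-Co3 (0.94). Serpina3k and Serpina1e encode secreted protease inhibitors, Cyp7b1 an oxysterol hydroxylase of bile acid synthesis, C6 a complement component, Ptms parathymosin and mt-Co3 a subunit of cytochrome c oxidase. Serpina1e averaged 1147 ± 772 normalised CPM in KD livers, 7089 ± 2642 in HFD livers and 7433 ± 2749 in CD livers. Cyp7b1 averaged 135 ± 25.0 in KD livers, 387 ± 119 in HFD livers and 311 ± 102 in CD livers. After subtraction of diet means r was 0.88 for Serpina3k and Cyp7b1 and 0.83 to 0.85 for the other 4. The fall of mt-Co3 against CD did not pass with log2(TPM + 1) (adjusted p = 0.0613, limma).

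A chosen list of 24 genes known to be expressed more in male mouse liver was set beside the members. Of the 23 tested, 20 were lower and 0 higher in KD than in CD livers (median log2 fold change -1.15, all genes -0.01), where 14.6% of all genes were lower. In KD against HFD, where 13% of all genes were lower, 18 were lower and 0 higher (median -1.06). In HFD against CD, where 7.32% of all genes were lower and 8.3% higher, 0 were lower and 1 was higher. The higher gene was C9, a complement component (log2 fold change 0.49). By smallest adjusted p against CD, Nudt7, a coenzyme A hydrolase of peroxisomes, fell by 1.47 (adjusted p = 9.05e-06) and Gstp1, a glutathione transferase, by 2.64 (1.12e-05). C9 fell by 0.97 (1.86e-05) and C6 by 1.65 (4.91e-05, edgeR), all on the log2 scale. Gstp1, Serpina1e and several listed cytochrome P450 genes have close copies, so their single values are uncertain as well.

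Of 27 listed female-biased genes, 20 were tested, while Cyp3a41a, Cyp3a44, Cyp3a16, Sult2a1, Sult3a1, A1bg and Hao2 were not. Of the 20, 12 were higher and 2 lower in KD than in CD livers (median 1.41), where 16.2% and 14.6% of all genes were. In KD against HFD 11 were higher and 1 lower (Cyp26a1, a retinoic acid hydroxylase, not called without KD replicate 6; median 0.82). Of all genes, 13.1% were higher and 13% lower there. In HFD against CD 2 were higher and 4 lower (median 0.05), beside 8.3% and 7.32% of all genes. Abcd2, Cyp2c40 and Cyp2c69 were among those 4. In KD against CD, Rtn4, an endoplasmic reticulum shaping protein, rose by 0.84 on the log2 scale (adjusted p = 3.93e-07, edgeR). There Acot4, a peroxisomal thioesterase, rose by 1.43 (5.24e-06) and Abcd2, a peroxisomal fatty acid transporter, by 1.85 (1.41e-05, edgeR). Between HFD and CD, Abcd2 fell by 0.70 (0.0376, edgeR). Cyp2b13, a cytochrome P450, averaged 0.625 normalised CPM in KD livers and 0.0117 in HFD livers and had 0 reads in CD livers, at least 6.11-fold higher in KD than in CD livers against a floor of 3 counts per library. With Cyp2b13 at that bound the list median was also 1.41. The 2 lower in KD than in CD livers were Cyp2c69 and Cyp2c40, cytochrome P450 genes from a family of close copies that can share reads. Their log2 fold changes were -3.59 (adjusted p = 0.000481) and -3.70 (0.000511, edgeR). In HFD against CD they were -2.40 (0.0101) and -2.16 (0.0189, edgeR).

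Of 15 transcripts of growth hormone signalling tested, 2 were higher and 1 lower in KD than in CD livers (median -0.05), where 30.8% of all genes passed in either direction. In KD against HFD, where 26.1% of all genes passed, 2 were higher and 1 lower (median -0.08), and 0 passed between HFD and CD (15.6% of all genes). Stat5b, the transcription factor through which pulsed growth hormone acts in male liver, averaged 48.1 normalised CPM in KD livers, 48.1 in HFD livers and 47.8 in CD livers. Igf1, the circulating growth factor it induces, averaged 600, 600 and 616 in the same order. Ghr, the growth hormone receptor, had a log2 fold change of -0.18 ± 0.08 against CD (adjusted p = 0.119). Socs2 and Cish, feedback inhibitors induced by STAT5, varied widely between libraries. Their log2 fold changes against CD were -1.17 ± 0.88 for Socs2 (adjusted p = 0.354) and -0.93 ± 1.13 for Cish (0.587). Those that passed were Igfbp3, a carrier of IGF1, which fell by 0.76 (adjusted p = 0.000229), Stat5a, which rose by 0.38 (0.0063), and Ptpn1, a tyrosine phosphatase, which rose by 0.22 (0.0235, edgeR). That of Igfbp3 did not pass with log2(TPM + 1) (0.0698, limma), nor that of Ptpn1 without KD replicate 2 (0.0665) or 4 (0.0624).

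Of 19 factors reported in mice to act on Mup or male-biased liver genes, 8 were higher and 1 lower in KD than in CD livers (median 0.23), where 30.8% of all genes passed. In KD against HFD 5 were higher and 1 lower (median 0.07; 26.1% of all genes), and in HFD against CD 3 were higher and 1 lower (median 0.11; 15.6% of all genes). Ppara, the fatty acid sensor, rose by 1.45 ± 0.12 (adjusted p = 1.7e-07), Rxra, a shared partner of nuclear receptors, by 0.46 (4.69e-05), Esr1, the oestrogen receptor, by 0.75 (0.00019) and Nr1i3, a xenobiotic receptor, by 0.67 (0.000908, edgeR) in KD against CD. In HFD against CD, Ppara also rose, by 0.67 (adjusted p = 0.0015), and Rxra by 0.21 (0.0444, edgeR). There Esr1 had a log2 fold change of -0.36 (0.0584) and Nr1i3 of 0.32 (0.101, edgeR), and neither passed. Zhx2, a factor reported to act on Mup genes in mouse liver, had a log2 fold change within 0.01 of 0 in KD against CD (adjusted p = 0.982, edgeR). Hnf4a and Cebpa, general hepatocyte factors, did not pass in any comparison.

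**Figure D5:**
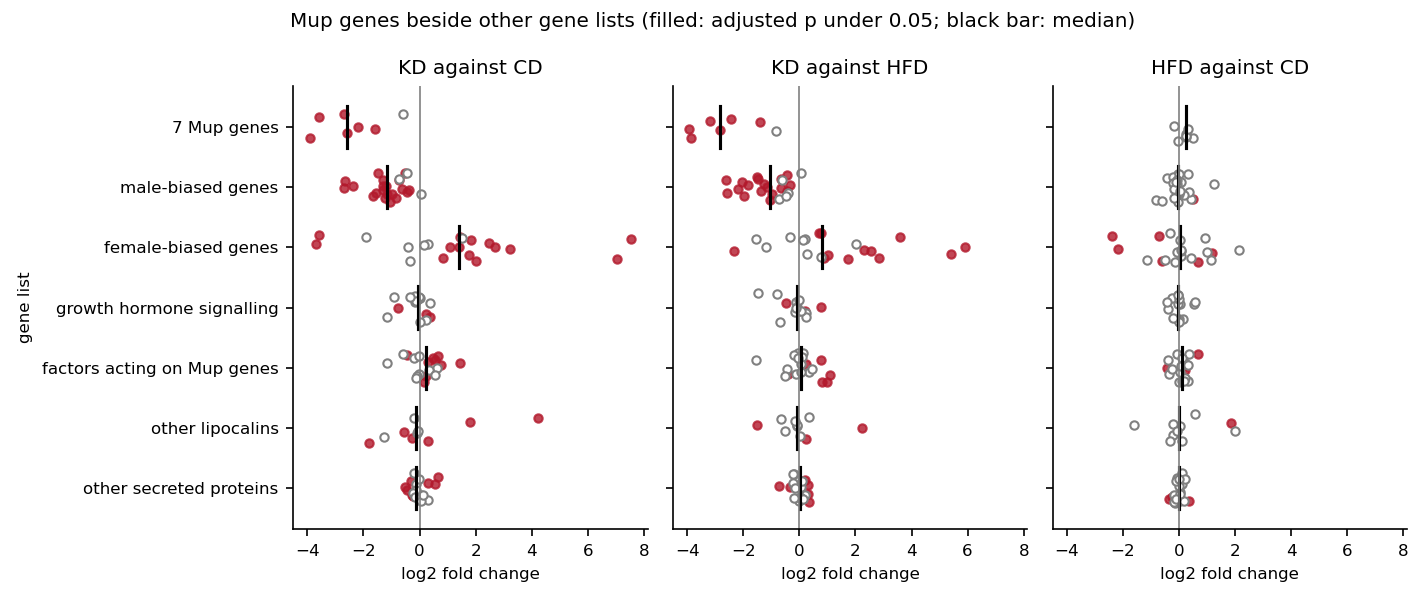
Log2 fold change of the 7 members and of 6 gene lists in KD against CD, KD against HFD and HFD against CD. Each point is a gene, filled where adjusted p is under 0.05, and black bars are list medians. The 7 members (median -2.60) and most male-biased genes (median -1.15) lie left of 0 and the female-biased genes mostly right of it in KD against CD.

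Other secreted liver products and other lipocalins moved in both directions. Alb, the main plasma protein, had a log2 fold change of 0.07 ± 0.08 in KD against CD (adjusted p = 0.563), 0.32 ± 0.08 in KD against HFD (0.00518) and -0.26 ± 0.08 in HFD against CD (0.0313). Of a list of 19 secreted proteins, Alb among them, 3 were higher and 5 lower in KD than in CD livers (median -0.13), where 16.2% and 14.6% of all genes were. In KD against HFD 4 were higher, Alb among them, and 2 lower (median 0.03), where 13.1% and 13% of all genes were. In HFD against CD 1 was higher and 2 lower, Alb among them (median 0.01), where 8.3% and 7.32% of all genes were. In KD against CD, Hp and Hpx, which bind haemoglobin and haem, rose by 0.66 (adjusted p = 7.66e-06) and 0.55 (0.00147, edgeR). Ttr, the thyroid hormone carrier, and Serpina1c, a protease inhibitor, fell there by 0.45 (0.00036) and 0.53 (0.00106, edgeR). In HFD against CD, Hp also rose, by 0.34 (0.00813), and Ttr also fell, by 0.36 (0.00603, edgeR). With log2(TPM + 1) neither Ttr (0.163) nor Serpina1c (0.0604, limma) passed. Of 10 other lipocalins 3 were higher and 3 lower in KD than in CD livers (median -0.14), and 2 were higher and 1 lower in KD than in HFD livers (median -0.08). In HFD against CD 1 was higher and 0 lower (median -0.01). The shares of all genes in each comparison are those given for the secreted list. Lcn2, an iron-siderophore binder of the acute phase, rose by 4.23, and Orm3, an acute phase protein, by 1.78. Rbp4, the retinol carrier, rose by 0.31, and Obp2a, an odorant binder, fell by 1.80 (adjusted p = 0.000338, 0.00119, 0.00728 and 0.0102, edgeR), all on the log2 scale against CD. In HFD against CD, Orm3 rose by 1.85 (adjusted p = 0.00297) and Lcn2 had a log2 fold change of 1.99 (0.0686, edgeR). Serpina1e, a secreted protein of the male-biased list, fell by 2.70 in KD against CD (adjusted p = 0.000552, edgeR).

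Hepatocyte markers (8 of 8 in the files) summed to 74800 to 84300 TPM in KD livers, 45400 to 57000 TPM in HFD livers and 43800 to 65400 TPM in CD livers, higher in every KD liver than in the others. Kupffer cell markers (6 of 6) summed to 80.5 to 126, 49.1 to 96.5 and 65.7 to 75.1 TPM in KD, HFD and CD livers. Stellate markers (5 of 5) summed to 106 to 135, 54.5 to 100 and 67.1 to 101 TPM in the same order. The stellate sum was thus also higher in every KD liver than in the others. Erythroid markers (3 of 3) summed to 539 to 820 TPM in KD livers, 384 to 1400 TPM in HFD livers and 945 to 1370 TPM in CD livers, lower in every KD liver than in every CD liver. No marker gene of these lists was at 0 in all libraries. TPM of a library adds to a fixed total in which Mup genes held 10.6 ± 2.09% in KD livers, 27.1 ± 8.68% in HFD livers and 23.5 ± 6.78% in CD livers. With log2(TPM + 1) values the median of all genes shifted by 0.21 in KD against CD. The part of these shifts in single results was not tested. Gene-assigned reads per library ran from 34635488 to 50804328 in KD livers, from 30055715 to 44674421 in HFD livers and from 30133055 to 43607098 in CD livers.

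Promoters were read from the RefSeq table (build GRCm38.p6), which held 14 of the 22 Mup genes, among them Mup2, Mup3, Mup7, Mup17 and Mup21. The 250 bases before the start of Mup2 and Mup10, which moved in opposite directions, were identical in 94.3% of 247 aligned bases, and those of Mup3 and Mup21 in 93.4% of 244. Mup2 and Mup17 shared 99.2% of 245 bases and Mup2 and Mup3 88.8% of 196. They are shown for the pairs named, 5′ to 3′ toward the gene, on the minus strand, at chr4:60139857-60140106 (Mup2), chr4:60582156-60582405 (Mup10), chr4:62087318-62087567 (Mup3) and chr4:62150842-62151091 (Mup21). Capitals mark matches to TATATAA.
Mup2: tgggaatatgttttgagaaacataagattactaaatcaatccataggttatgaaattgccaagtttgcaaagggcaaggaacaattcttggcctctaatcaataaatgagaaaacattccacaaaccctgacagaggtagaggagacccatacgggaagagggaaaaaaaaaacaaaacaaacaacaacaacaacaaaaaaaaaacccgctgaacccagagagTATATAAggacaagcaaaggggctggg
Mup10: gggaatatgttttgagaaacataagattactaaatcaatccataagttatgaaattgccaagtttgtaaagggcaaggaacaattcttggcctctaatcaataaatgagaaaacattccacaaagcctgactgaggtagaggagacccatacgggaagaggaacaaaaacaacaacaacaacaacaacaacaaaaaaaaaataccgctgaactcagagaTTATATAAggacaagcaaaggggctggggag
Mup3: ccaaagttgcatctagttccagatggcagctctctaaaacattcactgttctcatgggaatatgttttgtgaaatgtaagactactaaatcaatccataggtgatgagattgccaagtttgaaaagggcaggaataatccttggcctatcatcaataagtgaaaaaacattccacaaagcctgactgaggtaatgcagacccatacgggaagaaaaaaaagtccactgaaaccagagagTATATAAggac
Mup21: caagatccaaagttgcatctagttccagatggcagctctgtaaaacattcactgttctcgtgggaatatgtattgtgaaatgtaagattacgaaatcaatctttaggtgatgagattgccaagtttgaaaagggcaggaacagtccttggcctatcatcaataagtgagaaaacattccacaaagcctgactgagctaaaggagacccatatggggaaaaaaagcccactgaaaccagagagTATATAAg

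Both strands were searched for TTCNNNGAA, the STAT5-type palindrome, for TTGCNNAA, a C/EBP-type motif, and for TATATAA, a core promoter element, which was added after the sequences were seen. TTCNNNGAA was in 0 of the 14 Mup promoters and in 7.02% of all 32851 promoters of the same length. TTGCNNAA was in 0 of 14 and in 9.56% of all. TATATAA was in 11 of 14, namely all but Mup7, Mup11 and Mup14, and in 3.04% of all. The windows of Mup7, Mup11 and Mup14 stop before the end of the place where the others hold the match. Bases past the annotated start were not searched, so whether these genes hold the element was not tested. The 4 sequences printed each hold a TATATAA, and Mup10 holds 2 overlapping matches because one is read on the other strand. A match or its absence describes only these letters in this window.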

How the data were processed

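Per the labels' protocols, total RNA was extracted with Trizol from 15 C57BL/6 livers, 5 per diet, after 3 days. The submitters' processing notes name Trimmomatic 0.36, kallisto 0.44 and edgeR 3.28, and give GRCm38.p6 as the build. The deposited tables hold an estimated count for each of 106332 transcripts, which the authors obtained by dividing shared reads between transcripts. Per the file headers, TPM stands beside it. No source used here states whether counting used strand.

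Counts were then summed per gene by GENCODE M21 (105734 transcripts, 25731 genes) and rounded. The 598 unmatched transcripts (0.184 to 0.223% of reads) were left out. edgeR 4.0.16 (R 4.3.3) fitted all 15 libraries with filterByExpr (minimum count 10, total 15), TMM factors and robust quasi-likelihood tests, with Benjamini-Hochberg adjustment over 13967 genes and a threshold of 0.05. All adjusted p-values are from this fit unless another tool is named, and SE is the size of the log2 fold change over the square root of F. Normalised CPM used TMM library sizes. Pools joined Mup genes sharing at least 50% of distinct 31-base words. Alternatives were DESeq2 1.42.0 and its size factors, total-count scaling, no filter, a minimum count of 50, the compared diets alone, log2(TPM + 1) with limma 3.58.1 (pseudocount 1), library sizes without Mup genes, pools at 90% and each library left out. Python 3.11.15, pandas 2.3.3 and matplotlib 3.10.9 were also used.

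The members, gene lists and the rule for named genes were chosen with earlier results of these data known. The rule names the 7 members, other Mup genes, the 6 genes most like the family and, from each list, up to 4 genes that passed, taken by adjusted p. Further list genes (Alb, Ghr, Stat5b, Igf1, Socs2, Cish, Zhx2, Hnf4a, Cebpa, Cyp26a1, Cyp2c69 and Cyp2c40) were named after their values were seen. The fit was tested on simulated data for KD against CD (13768 genes), with 67, 67 and 66 genes changed 1.5-fold, 2-fold and 4-fold. It recovered 80.6%, 95.5% and 100% of these, and 12 of its 196 calls were false. The simulated counts took their spread from the fit itself and held no reads shared between copies. In the real data 30.8% of genes passed, so these rates hold for the simulated setting only. The accuracy of the Mup calls was not tested. Chi-square per degree of freedom between replicates was 18.5 to 113.44 over 30 pairs, so no libraries were duplicates, and the biological coefficient of variation was 0.1306. No source used here gives batch, date or food intake, and any batch that followed the diets cannot be told apart from them.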

Additional observations from a re-analysis of the deposited data

Results flagged for a closer look

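In 72 groups of 5 libraries (22 Mup genes, the pool and the family share on each diet), 4 held a library whose gap to the nearest other was large relative to the range, by Dixon's criterion. Chance alone flags about 1 in 20 groups. Mup2 had 171.8 normalised CPM in KD replicate 6, against 29.5 to 59.9 in the other KD livers. Mup21 had 74.31 normalised CPM in the same liver, against 13.8 to 29.8 in the others. Mup21 had 305.5 normalised CPM in CD replicate 19, against 162 to 202 in the other CD livers. Mup10 had 926.7 normalised CPM in HFD replicate 12, against 98.8 to 209 in the other HFD livers.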

How the results depend on the processing

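Under 23 alternatives the 6 members called lower in KD livers kept their direction and call against CD and against HFD. The pool holding Mup7 was lower under each of 24, its log2 fold change running from -1.36 to -1.06 against CD with its 16 copies and -3.60 with pools at 90%, where Mup7 stands alone. The counts over all genes moved more. With log2(TPM + 1), 4856 genes were higher and 347 lower in KD against CD, 4978 and 199 in KD against HFD, and 119 and 351 in HFD against CD. With total-count scaling 1265 were lower against CD and 960 against HFD. The cause was not tested. Genes lower in HFD than in CD ran from 681 (without CD replicate 15) to 1313 over fits that left out 1 library. The Mup share of reads was 1.057, 4.559 and 3.998% in KD, HFD and CD livers for the 7 members only, and 10.62, 27.05 and 23.5% as a share of TPM.

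Mup2 in HFD against CD (-0.03, not called) ran from -0.38 to 0.24 when 1 library was left out, above 0 without HFD replicate 11, 12 or 14 or CD replicate 15 or 19. Mup10 in HFD against CD (0.64, not called) ran from -0.27 (without HFD replicate 12) to 0.87. Mup9 in KD against HFD (-0.02, not called) was 0.067 with total-count scaling and 1.05 with log2(TPM + 1) (adjusted p = 0.0135, limma), and in KD against CD 1.36 in place of 0.27 (0.00303). The first ran from -0.19 to 0.16 when 1 library was left out, above 0 without KD replicate 2 or 4 or HFD replicate 9 or 10. The alternatives for list genes and for Mup genes outside the 7 members were chosen after seeing the data, and 20 male-biased genes were lower in KD than in CD livers with total-count scaling, with library sizes without Mup genes and without KD replicate 6. In HFD against CD total-count scaling gave 2 male-biased genes higher and 1 lower (1 and 0 otherwise) and 1 female-biased gene higher (2 otherwise). No paired analysis was possible because no replicate number recurs between diets. The 5 livers per diet limit these values, and single copies within the pool rest on how shared reads were divided.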

Other observations

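Mup9 did not pass in KD livers at the level of the gene with estimated counts (log2 fold change 0.27 against CD, adjusted p = 0.544, edgeR). With log2(TPM + 1) it was higher in KD than in CD livers by 1.36 (adjusted p = 0.00303, limma). The estimated counts of its transcripts were divided differently between diets, and how far this comes from reads shared with the near-identical copies was not tested. A retained-intron transcript of Mup9 (ENSMUST00000127151) was given 39781, 58750, 33253, 42164 and 75148 estimated counts in KD livers and 0 in each HFD and CD liver. It held 55.5% of Mup9 reads in KD livers. The main coding transcript of Mup9 (ENSMUST00000107506) held 41.6% of Mup9 reads in KD livers, 91.7% in HFD livers and 92.9% in CD livers. Mup9 averaged 2138 ± 458 normalised CPM in KD livers, 2170 ± 828 in HFD livers and 1773 ± 692 in CD livers, while its TPM averaged 12640 ± 3407, 6253 ± 2061 and 5084 ± 2044 in the same order. No KD liver overlapped the other diets in Mup9 TPM. No test was run on single transcripts.

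The coding transcript of Mup10 (ENSMUST00000098047) held 90.5% of Mup10 reads in KD livers, 51.4% in HFD livers and 36.7% in CD livers. It had 32346 to 66451 estimated counts in KD livers, 581 to 23790 in HFD livers (the highest in replicate 12) and 354 to 6486 in CD livers. A retained-intron transcript of Mup10 (ENSMUST00000148302) held the rest, with 3028 to 7056 estimated counts in KD livers, 3531 to 6381 in HFD livers and 3419 to 6733 in CD livers. Between the diets, the counts of the second transcript overlapped.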
